A study of Mus musculus with 8 samples.

Results

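Promoters of long intergenic non-coding RNA (lincRNA) genes were examined in tumors of Lewis lung carcinoma cells. The members were the regions reaching 1 kb upstream and 0.5 kb downstream from the 5′ end of each gene typed lincRNA in GENCODE vM1 (mm9), on chromosomes 1 to 19, where the 5′ end lay more than 5 kb from every protein-coding transcription start site (TSS). Of the 1273 lincRNA genes in that annotation, 1232 lay on these chromosomes, 764 of them lay within 5 kb of a protein-coding TSS, and 468 were kept. They were compared with the promoters of 21418 protein-coding genes. LLC-NR and LLC-R are lines of the murine carcinoma LLC. LLC-NR is sensitive to VEGF-Trap, a decoy receptor that binds vascular endothelial growth factor, and LLC-R became resistant through repeated selection in animals under VEGF-Trap. Both were injected under the skin of the right flank of female C57BL/6J mice 6 to 8 weeks old. The methods describe VEGF-Trap in the selection of LLC-R. Whether the mice that carried the profiled isografts also received it, and whether isografts were pooled, is not clear from the sources used here. Each line has 1 library of micrococcal nuclease-digested chromatin for H3K4me3, H3K9ac, H3K27me3 and H3K36me3, so the 8 libraries hold no replicate, no input, and host cells of the tumor as well as carcinoma cells. The labels name the tissue as lung, whereas the isografts grew under the skin. In such bulk tissue, fewer cells of a type and less of a mark per cell cannot be told apart.

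A lincRNA is transcribed by RNA polymerase II, is usually spliced, and is not known to code for a protein. Trimethylation of H3K4 and acetylation of H3K9 mark nucleosomes beside active start sites, and H3K4me3 is also laid down at CpG-rich promoters by complexes that recognise unmethylated CpG. Trimethylation of H3K27 is deposited by Polycomb repressive complexes, and trimethylation of H3K36 follows elongating polymerase through the body of a transcribed gene. Many lincRNAs were first recognised by H3K4me3 at the start and H3K36me3 along the body of a transcript between known genes.

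CpG content, on which the comparisons below turn, varied widely among the promoters of known lincRNAs. The following sequences (mm9, 250 bases upstream to 49 bases downstream of the 5′ end, on the strand of the gene, CpG dinucleotides in capitals) show the members of the lists of known lincRNAs with the most CpG (Dleu2, chr14:62301113-62301412, minus strand, and Snhg5, chr9:88417672-88417971, minus strand) and one with few (Sox2ot, chr3:34003110-34003409, plus strand).
Dleu2: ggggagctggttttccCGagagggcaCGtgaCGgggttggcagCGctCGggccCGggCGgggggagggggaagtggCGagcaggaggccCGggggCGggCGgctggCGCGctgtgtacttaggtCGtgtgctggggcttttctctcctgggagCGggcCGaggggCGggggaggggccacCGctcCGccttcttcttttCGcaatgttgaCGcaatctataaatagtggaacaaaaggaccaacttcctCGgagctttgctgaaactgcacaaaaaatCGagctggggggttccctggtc
Snhg5: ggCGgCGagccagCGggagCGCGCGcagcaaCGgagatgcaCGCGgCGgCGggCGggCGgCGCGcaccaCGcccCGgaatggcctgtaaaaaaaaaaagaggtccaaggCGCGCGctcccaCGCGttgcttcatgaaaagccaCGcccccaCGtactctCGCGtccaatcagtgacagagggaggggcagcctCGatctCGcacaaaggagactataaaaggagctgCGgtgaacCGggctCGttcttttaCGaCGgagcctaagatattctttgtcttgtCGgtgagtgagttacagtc
Sox2ot: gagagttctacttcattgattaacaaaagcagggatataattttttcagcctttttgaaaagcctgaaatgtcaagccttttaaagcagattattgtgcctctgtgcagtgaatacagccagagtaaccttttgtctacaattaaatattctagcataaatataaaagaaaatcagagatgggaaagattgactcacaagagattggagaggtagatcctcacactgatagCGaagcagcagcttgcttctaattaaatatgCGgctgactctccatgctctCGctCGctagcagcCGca
These windows hold 23 CpG in Dleu2, 34 in Snhg5 and 5 in Sox2ot. The next sequences are those of Gm10492 (chr17:95233996-95234295, plus strand) and of Gm17668 (chr14:118762704-118763003, plus strand). Gm10492 with Ttc28 had the most H3K4me3 peaks of all lincRNA promoters over both lines. Gm17668 had the largest excess of H3K27me3 over H3K4me3 peaks, with ties, among promoters with a peak in every library.
Gm10492: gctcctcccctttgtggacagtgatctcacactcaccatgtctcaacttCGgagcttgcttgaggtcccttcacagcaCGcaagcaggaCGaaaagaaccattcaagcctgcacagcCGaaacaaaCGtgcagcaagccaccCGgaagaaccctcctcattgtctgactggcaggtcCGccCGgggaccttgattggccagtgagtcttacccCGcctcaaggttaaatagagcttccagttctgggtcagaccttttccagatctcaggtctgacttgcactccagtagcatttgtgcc
Gm17668: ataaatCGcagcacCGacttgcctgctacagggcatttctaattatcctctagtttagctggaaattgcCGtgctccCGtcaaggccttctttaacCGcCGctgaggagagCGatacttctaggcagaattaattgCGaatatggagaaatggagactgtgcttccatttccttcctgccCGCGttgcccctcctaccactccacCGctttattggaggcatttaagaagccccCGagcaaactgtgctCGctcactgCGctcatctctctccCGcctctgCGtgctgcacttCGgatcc

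The libraries held between 5660458 and 9101721 peaks, each 147 bp wide, the length of DNA on a nucleosome. The files give positions only, so the level of a mark in a promoter is its number of peak midpoints, which never exceeded 9 in the 1.5-kb region. Peaks covered 32.1% to 51.3% of chromosomes 1 to 19, so regions far from any gene hold peaks as well. In 1302366 background windows of 1.5 kb, each 5 kb or more away from TSSs, the level in LLC-NR averaged 3.28 for H3K4me3, 5.01 for H3K9ac, 4.31 for H3K27me3 and 3.77 for H3K36me3. Promoters of the marker genes of lung epithelium, leukocytes, endothelium and fibroblasts had mean H3K4me3 levels of 4.33 to 5.29 in LLC-NR against 5.86 for housekeeping genes. This contrast is not matched for CpG. By the classes defined below, 5 of 7 housekeeping promoters were high in CpG, against 2 of 9, 0 of 8, 1 of 6 and 0 of 7 in the order named. In LLC-R, 3 of 8 leukocyte promoters and 4 of 9 lung epithelium promoters reached the protein-coding mean of H3K4me3, after 5 and 5 in LLC-NR. For endothelium it was 2 of 6 after 3, for fibroblasts 5 of 7 after 6, and for housekeeping genes 6 of 7 in both lines. The part of cell makeup in the results below was not tested. With no replicates there is no test of a difference between the lines. Intervals given with differences are 95% intervals over the spread among promoters, those with shares are exact binomial (Clopper-Pearson) and those with densities of peaks are Poisson intervals. They cover the sampling of promoters or peaks within a library and not biological variation.

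Promoters of lincRNA genes were poorer in CpG than protein-coding promoters. The median number of CpG dinucleotides in 1.5 kb was 25 (quartiles 16 and 46) against 49 (17 and 81). High-CpG promoters (HCPs), in which some window of 500 bp reaches 0.6 in the ratio of observed to expected CpG together with 55% G and C, made up 125 of the 468 lincRNA promoters (26.7%, 22.8% to 30.96%) and 54.96% of the protein-coding promoters. Low-CpG promoters (LCPs), in which no window reaches a ratio of 0.4, made up 181 (38.7%, 34.2% to 43.3%) against 28.0%, and the 162 others were intermediate (ICPs). The genes had a median length of 9099 bp and a median of 3 exons, and the 5′ ends lay a median of 27263.5 bp from the nearest protein-coding TSS.

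Although typed as intergenic, not all members began outside protein-coding genes. The 5′ end was intergenic in 332, in an intron of a protein-coding gene in 85 (75 on the opposite strand and 10 on the same strand) and opposite an exon in 51. By symbol, synonym or Ensembl identifier, 233 members matched a gene of the newer RefSeq annotation. RefSeq typed 202 of these as lncRNA and 14 as protein-coding, among them Ttc28, Nlrc5, Tdrd5 and Fam150a. It typed 8 as pseudogenes, 7 as transcribed pseudogenes, 1 as a microRNA and 1 as an antisense RNA. The other 235 members had no match, so whether the annotations differ for them is not known. A total of 6 pairs of promoters overlapped and shared peaks. The share of 32-base words found only once in the genome had a median of 97.9% in lincRNA promoters and 98.8% in protein-coding promoters. In 12 lincRNA promoters (2.56%, against 2.46% of protein-coding promoters) no library had a peak, and their unique share was at most 6.73%.

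At matched CpG content, H3K4me3 in lincRNA and protein-coding promoters did not differ beyond the spread among promoters. The mean was 4.46 ± 1.83 (SD over 468 promoters) in LLC-NR tumors and 4.35 ± 1.68 in LLC-R tumors. Without matching, the protein-coding means were higher, 4.98 and 4.66. When protein-coding promoters were averaged in 10 bins of CpG number and weighted by the lincRNA promoters in each bin, their means were 4.44 and 4.20, which left differences of 0.0191 peaks per promoter (interval -0.146 to 0.184) in LLC-NR and 0.144 (-0.00874 to 0.296) in LLC-R. The numbers varied from 0 to 9 among lincRNA promoters, and 19 of them had no H3K4me3 peak in LLC-NR and 21 in LLC-R.

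H3K4me3 rose with CpG content within the lincRNA promoters as well. In LLC-NR the mean was 3.65 in promoters with 2 to 9 CpG, 4.88 with 31 to 38 CpG and 5.91 with 68 to 163 CpG. Protein-coding promoters in the same bins had 2.79, 4.58 and 6.25, so the slope was shallower in lincRNA promoters, which sat above the protein-coding mean at the lowest CpG content and below it at the highest. In LLC-R the corresponding lincRNA means were 3.55, 4.56 and 5.77. Spearman's rho between H3K4me3 and CpG number came to 0.44 for LLC-NR and 0.33 for LLC-R over the 468 lincRNA promoters, against 0.64 and 0.62 over the protein-coding promoters, as a description across promoters of the same library.

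**Figure D1:**
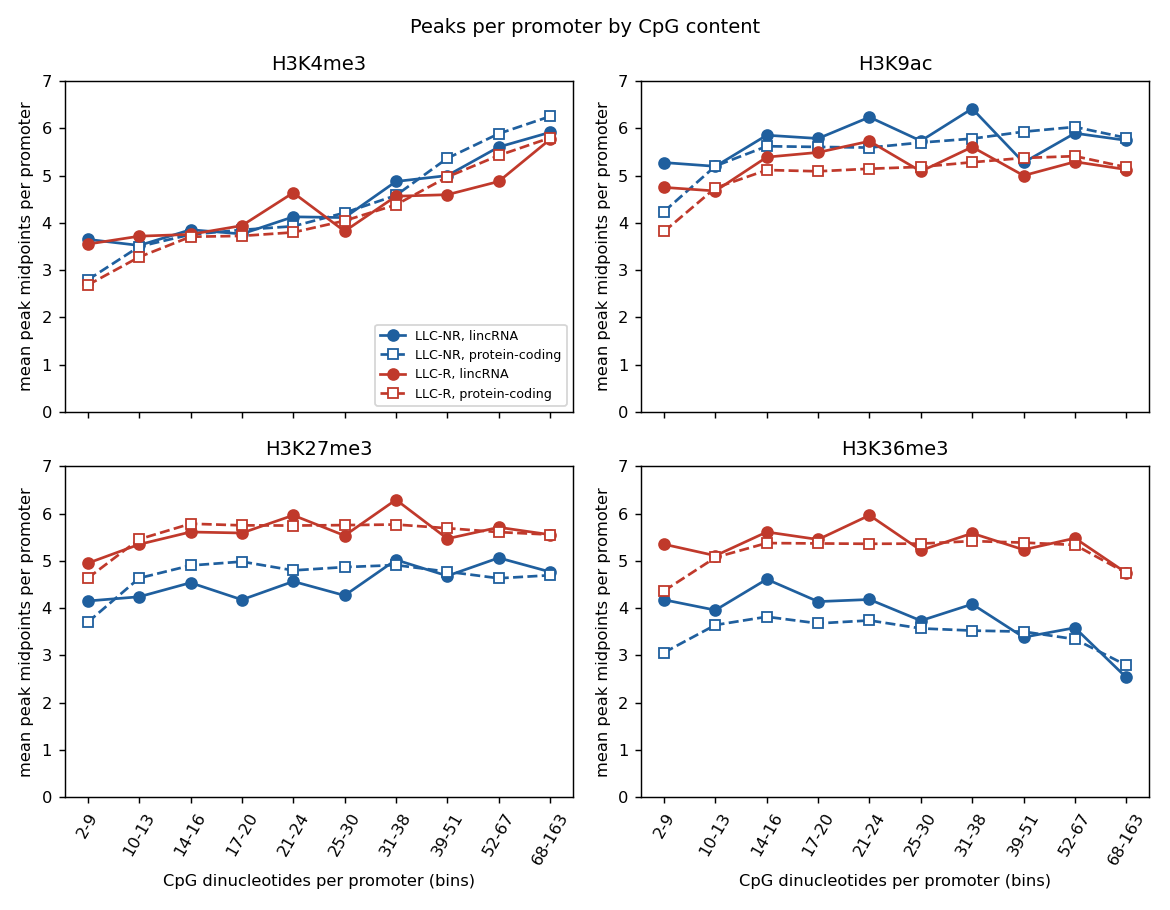
Mean number of peak midpoints per promoter (vertical axes) in 10 bins of CpG number (horizontal axes) for lincRNA promoters (circles, 40 to 55 per bin) and protein-coding promoters (squares) in LLC-NR (blue) and LLC-R (red). H3K4me3 climbed with CpG in both kinds of promoter, from 3.65 to 5.91 in lincRNA promoters of LLC-NR, and lincRNA H3K36me3 was lowest in the richest bin in both lines (2.53 and 4.74). Protein-coding H3K36me3 in LLC-R was lowest in the poorest bin (4.36).

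H3K9ac was slightly more frequent in lincRNA promoters. The LLC-NR mean was 5.76 ± 1.64 and the LLC-R mean 5.23 ± 1.66, against 5.57 and 5.05 in protein-coding promoters of like CpG content. The differences were 0.188 (0.0395 to 0.336) and 0.179 (0.0280 to 0.330) peaks per promoter. They were largest where the lincRNA began within a protein-coding gene, at 0.580 (0.389 to 0.771) in LLC-NR and 0.462 (0.244 to 0.680) in LLC-R over 136 promoters, and were 0.0272 (-0.165 to 0.220) and 0.0627 (-0.129 to 0.255) in the 332 intergenic ones. Without the 141 promoters that overlap a protein-coding gene, the difference in LLC-NR was 0.0150. The excess was also smaller among promoters with at least 90% unique sequence of both kinds (0.0571 in LLC-NR and 0.0710 in LLC-R).

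H3K27me3 in lincRNA promoters was close to the level at protein-coding promoters. The mean was 4.55 ± 1.90 against 4.71 at like CpG content in LLC-NR, a difference of -0.152 (-0.324 to 0.0205), and 5.62 ± 1.69 against 5.59 in LLC-R, a difference of 0.0294 (-0.124 to 0.183). In LLC-NR the lincRNA promoters in introns of protein-coding genes stood lowest, with 4.01 ± 1.76 (n = 85), a difference from protein-coding promoters of like CpG content of -0.671 (-1.04 to -0.298). The same 85 promoters had 5.56 ± 1.37 in LLC-R, where the difference was 0.00926 (-0.281 to 0.300). Intergenic lincRNA promoters did not differ beyond their spread in either line (-0.0168 and 0.00427).

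H3K36me3 gave a clear contrast among the members, by where the 5′ end lay. In LLC-NR the promoters of lincRNAs that begin opposite an exon of a protein-coding gene held 5.06 ± 1.41 peaks (n = 51), those in introns held 4.59 ± 1.63 (n = 85), and intergenic ones held 3.45 ± 1.66 (n = 332). Against protein-coding promoters of like CpG content these were 1.55 (1.17 to 1.94) and 1.01 (0.665 to 1.36) higher for the first and second groups, and 0.00768 (-0.171 to 0.186) apart for the intergenic group. In LLC-R the means were 5.96 ± 1.22, 5.82 ± 1.18 and 5.18 ± 1.75, and the differences were 0.731 (0.397 to 1.06), 0.629 (0.379 to 0.880) and -0.00275 (-0.191 to 0.186). The order of the groups was thus the same in both lines, and the intervals of exonic and intronic starts overlapped each other but not those of intergenic starts in LLC-NR. Background windows showed the same division: those inside protein-coding genes held 4.33 H3K36me3 peaks and those outside held 3.46 in LLC-NR, with 5.58 and 4.91 in LLC-R.

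**Figure D2:**
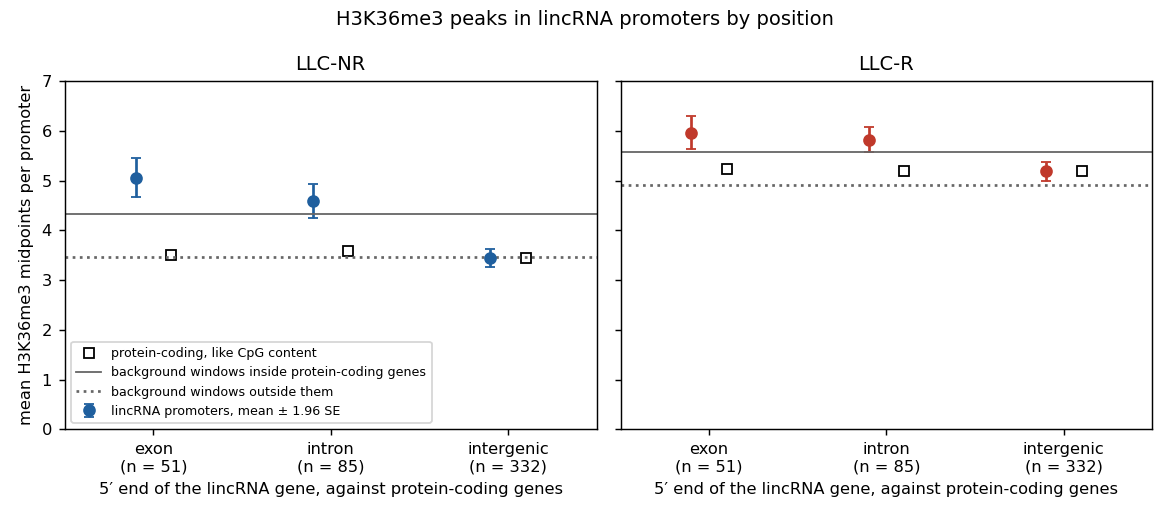
Mean H3K36me3 midpoints per lincRNA promoter (filled circles, error bars 95% intervals) by the position of the 5′ end, with protein-coding promoters of like CpG content (open squares) and background windows inside (solid line) and outside (dotted line) protein-coding genes, in LLC-NR (left) and LLC-R (right). Exonic and intronic starts sit above the line for windows inside genes in LLC-NR (5.06 and 4.59 against 4.33), and intergenic starts sit on the line for windows outside (3.45 and 3.46). In LLC-R intergenic starts sit above that line (5.18 against 4.91).

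Over all 468 promoters, the H3K36me3 mean was 3.83 against 3.47 at like CpG content in LLC-NR and 5.38 against 5.19 in LLC-R, differences of 0.358 (0.201 to 0.515) and 0.192 (0.0435 to 0.340). With the 141 promoters that overlap a protein-coding gene left out, the differences were -0.0231 and -0.0214, and among promoters of at least 90% unique sequence they were 0.253 and 0.0530. By strand of the host gene, in LLC-NR the 126 opposite-strand promoters had 4.87 peaks and the 10 same-strand promoters, a small group, had 3.50. The opposite-strand group holds all 51 exonic starts and the same-strand group only intronic ones, so strand is mixed with position here. The same-strand promoters in LLC-NR were also below protein-coding promoters of like CpG content in every mark. These differences were -0.617 for H3K4me3, -0.278 for H3K9ac, -0.636 for H3K27me3 and -0.178 for H3K36me3. Among intergenic starts in LLC-NR the number of H3K36me3 peaks was lower with distance from a protein-coding TSS. It was 3.78 at 5 to 10 kb (n = 59), 3.57 at 10 to 50 kb (n = 147) and 3.15 beyond 50 kb (n = 126). This was not particular to H3K36me3, as H3K4me3 (4.98, 4.73 and 4.40) and H3K9ac (6.00, 5.68 and 5.41) were lower with distance too. H3K27me3 (4.73, 4.78 and 4.56) did not fall at each step.

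Along the gene body, counted from 0.5 to 3 kb downstream in the 400 lincRNA genes of at least 3 kb, H3K36me3 averaged 2.78 ± 1.10 peaks per kb in LLC-NR and 3.69 ± 1.001 in LLC-R. Protein-coding genes of like CpG content had 2.69 and 3.66, so the differences were 0.0882 (-0.0199 to 0.196) and 0.0260 (-0.0721 to 0.124) peaks per kb. Without the lincRNA genes whose promoter overlaps a protein-coding gene, these differences turned to -0.221 and -0.196, so the remaining lincRNA bodies held fewer H3K36me3 peaks on average than protein-coding ones. Again the mean hid a division by class. In LLC-NR, genes with an HCP had fewer H3K36me3 peaks if they were lincRNA genes (2.70 per kb, n = 112) than if they were protein-coding (3.11). Those with an LCP had more (2.70, n = 154, against 2.31), where background windows held 2.51 per kb, above the protein-coding value. Starts within protein-coding genes were seldom HCPs, 11 of 51 opposite exons and 4 of 85 in introns, against 110 of 332 intergenic ones. The part of position in this division was not tested. H3K4me3 in the body of lincRNA genes was lower than in protein-coding genes of like CpG content, with a difference of -0.168 (-0.275 to -0.0603) peaks per kb in LLC-NR, and of -0.0782 (-0.177 to 0.0202) in LLC-R.

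The chromatin signature of a transcribed unit, with H3K4me3 in the promoter and H3K36me3 in the body both at or above the protein-coding mean, was found in 96 of 400 lincRNA genes in LLC-NR (24.0%, 19.9% to 28.5%) and 124 in LLC-R (31%, 26.5% to 35.8%). Among protein-coding genes it was found in 41.4% and 45.2%, without matching for CpG content. It held in both lines for 48 lincRNA genes (12.0%) against 28.3% of protein-coding genes. Among lincRNA genes with the H3K4me3 level reached, the body held 2.92 H3K36me3 peaks per kb in LLC-NR, and 2.62 in those below it, a gap of smaller size than in protein-coding genes (3.11 and 2.23). All these lincRNA numbers include genes that begin within protein-coding genes, whose promoters held more H3K36me3. They were not split by position, so the part of the host genes in the signature was not tested.

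Around the start, H3K4me3 in lincRNA HCPs of LLC-NR was spread more evenly than in protein-coding HCPs, which was less plain in LLC-R and did not hold for every mark. In protein-coding HCPs of LLC-NR, H3K4me3 midpoints rose to 6.06 per kb at 100 to 199 bp downstream, dropped to 3.35 over the next 100 bp and rose again to 5.12 at 300 to 399 bp, about the spacing of nucleosomes. The 125 lincRNA HCPs had 4.40 (3.31 to 5.73), 3.44 (2.49 to 4.63) and 4.0 (2.97 to 5.27) per kb in these bins. Of these bins, only in the first did the interval leave out the protein-coding value, which was 6.00 when protein-coding HCPs were weighted to the CpG number of lincRNA HCPs. The 46 lincRNA HCPs with a manual annotation had 3.70 per kb there and the 79 annotated automatically had 4.81. From the start to 99 bp the order was reversed in LLC-NR, with 4.32 (3.25 to 5.64) against 3.13. In LLC-R it was not reversed, with 2.88 (2.02 to 3.99) against 3.10, and at 100 to 199 bp the lincRNA value was 4.88 (3.73 to 6.27), with the 5.63 of protein-coding HCPs inside the interval. H3K27me3 in LLC-R swung more in lincRNA HCPs, with 4.96 (3.80 to 6.36) against 4.49 at 100 to 199 bp and 3.12 (2.22 to 4.27) against 3.41 in the next bin, where both protein-coding values lay inside the intervals.

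Just upstream of the start, H3K36me3 in both lines and H3K9ac in LLC-R were denser in lincRNA HCPs than in protein-coding HCPs. From 150 bp upstream to the base before the start, protein-coding HCPs held 2.05 H3K9ac midpoints per kb in LLC-R and lincRNA HCPs held 2.77 (2.07 to 3.64). For H3K36me3 the densities were 0.999 and 1.6 (1.08 to 2.28) in LLC-NR and 2.01 and 3.04 (2.30 to 3.94) in LLC-R. The intervals of these 3 libraries left the protein-coding value out, whereas H3K9ac in LLC-NR, at 2.83 (2.12 to 3.70) against 2.51, did not. Values at like CpG content were computed only for the 100 bp before the start, where none of the 3 was set apart. In these 100 bp, H3K36me3 in LLC-NR was 0.849 in protein-coding HCPs and 0.978 when weighted to the CpG number of lincRNA HCPs. The weighted value lay at the edge of the lincRNA interval (1.6, 0.977 to 2.47). In LLC-R the weighted values of 1.92 for H3K9ac and 2.04 for H3K36me3 lay inside the lincRNA intervals (2.56, 1.75 to 3.61, and 2.72, 1.88 to 3.80). The unweighted H3K9ac value of 1.82 was already inside, so for H3K9ac the smaller window and not the weighting made the change. The unweighted H3K36me3 value of 1.80 was outside. For H3K4me3 from 150 bp upstream, the order in LLC-NR was the opposite, with 3.20 (2.44 to 4.12) in lincRNA HCPs against 3.64. In LLC-R lincRNA HCPs were higher, with 3.84 (3.005 to 4.84) against 3.23, and in both lines the protein-coding value lay inside the interval.

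**Figure D3:**
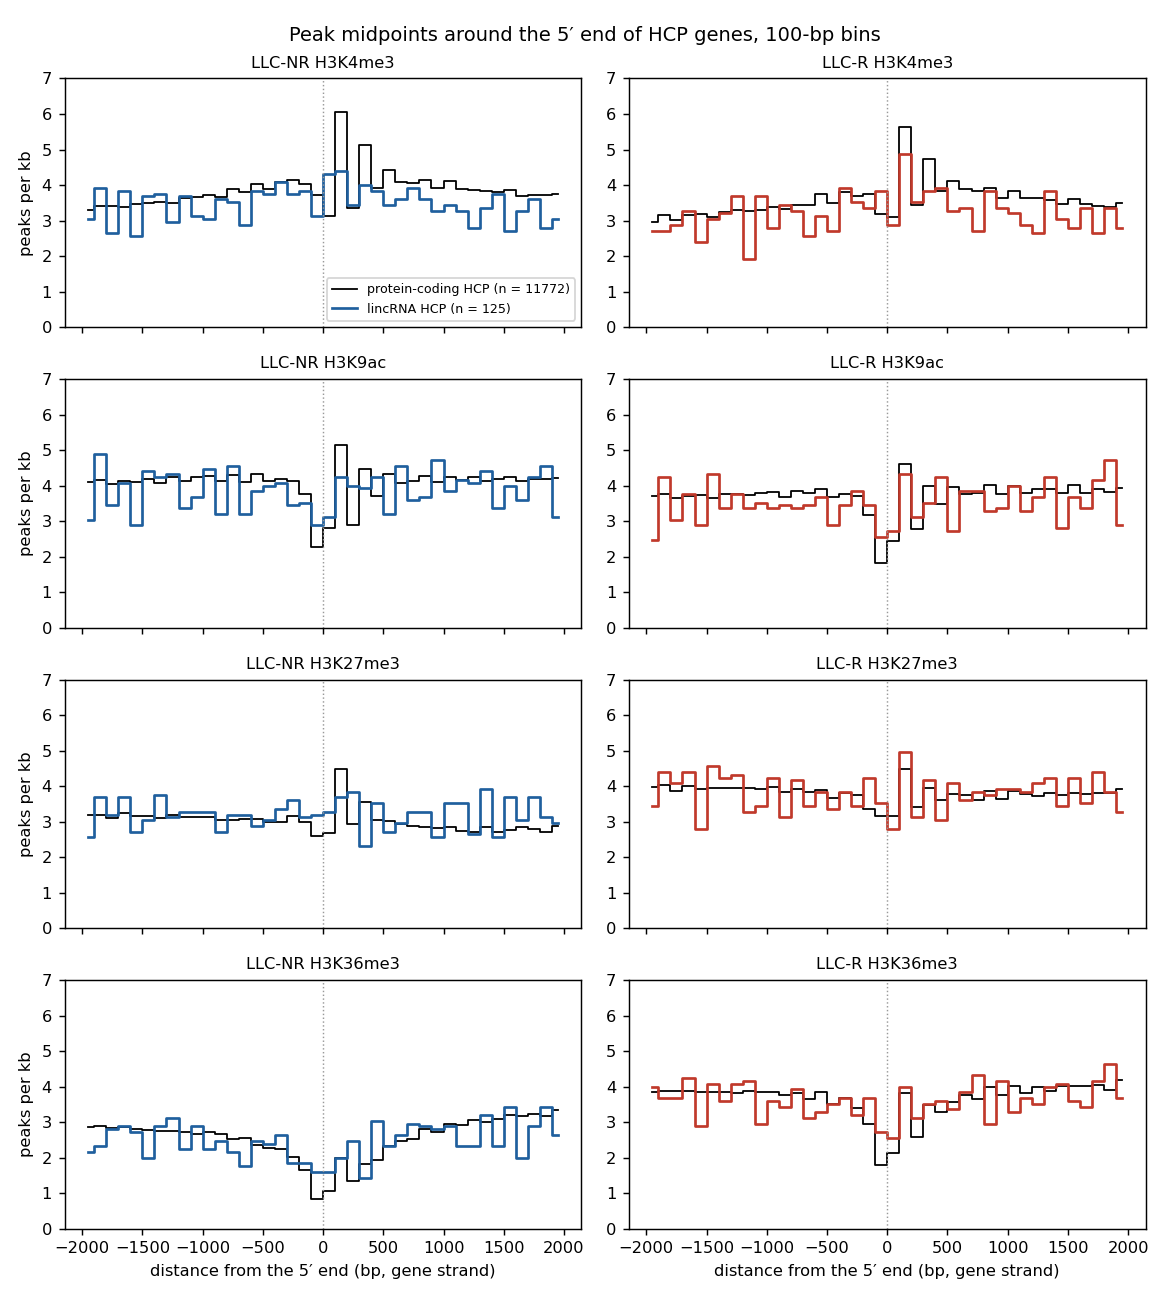
Peak midpoints per kb (vertical axes) in 100-bp bins by distance from the 5′ end on the strand of the gene (horizontal axes) for the 125 lincRNA HCPs (colored lines) and the 11772 protein-coding HCPs (black lines), with 1 panel per library. For H3K4me3 in LLC-NR, protein-coding HCPs have a sharp summit at 100 to 199 bp (6.06 midpoints per kb) where the lincRNA line is flatter (4.40), while for H3K27me3 in LLC-R the lincRNA line is the higher one there (4.96 against 4.49).

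A histone modification state was given to each promoter from the protein-coding mean of each library: active with H3K4me3 or H3K9ac at or above it and H3K27me3 below it, bivalent with an active mark and H3K27me3 at or above it, repressive with H3K27me3 alone, and none. Since peaks are whole numbers, this asked for at least 5 H3K4me3 or 6 H3K9ac peaks in both lines, and for 5 (LLC-NR) or 6 (LLC-R) H3K27me3 peaks. In LLC-NR, 145 lincRNA promoters were active (30.98%, 26.8% to 35.4%), 224 bivalent (47.9%), 32 repressive (6.84%) and 67 in no state (14.3%). Protein-coding promoters of like CpG content were active in 24.2%, bivalent in 50.5% and repressive in 10.4%. Among ICPs the lincRNA promoters were active in 34.6% (27.3% to 42.4%) and the protein-coding ones in 20.3%. Among HCPs the order turned, with 31.2% (23.2% to 40.1%) against 40.3%.

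In LLC-R fewer lincRNA promoters were active, 86 (18.4%, 14.97% to 22.2%), close to the 18.7% of protein-coding promoters of like CpG content. Bivalent lincRNA promoters numbered 247 (52.8%, 48.1% to 57.4%) and repressive ones 63 (13.5%, 10.5% to 16.9%). Protein-coding promoters of like CpG content were bivalent in 47.0% and repressive in 16.6%. A total of 225 lincRNA promoters (48.1%, 43.5% to 52.7%) were in another state than in LLC-NR, against 42.8% of protein-coding promoters of like CpG content. Of the 145 lincRNA promoters active in LLC-NR, 44 stayed active (30.3%, 23.0% to 38.5%) and 74 became bivalent (51.0%, 42.6% to 59.4%). Without matching for CpG content, 36.6% of active protein-coding promoters became bivalent. At like CpG content 36.7% of active protein-coding promoters stayed active. The number of H3K27me3 peaks in the whole library was also higher in LLC-R (9101721 against 7245090), and its part in these changes was not tested.

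Known lincRNAs were taken from 5 lists by role, of which 1 of 3 nuclear RNAs, 5 of 20 hosts of small RNAs, 3 of 8 imprinted RNAs, 3 of 18 developmental RNAs and 3 of 11 RNAs of growth and the p53 response were members. The hosts of small nucleolar RNAs or microRNAs, whose introns are processed into these small RNAs, were alike in H3K4me3. The members Snhg4, Snhg5, Snhg7, Snhg12 and Dleu2, all HCPs, each held 6 H3K4me3 peaks in the LLC-NR isograft, and 5, 5, 5, 4 and 6 in that of LLC-R. Their H3K9ac was 6 to 7 in LLC-NR and 5 to 8 in LLC-R, at or above the lincRNA medians of 6 and 5. H3K27me3 was 3, 4, 6, 1 and 3 (LLC-NR) and 4, 3, 5, 4 and 5 (LLC-R), with medians of 3 and 4 against 5 and 6 over all lincRNA promoters, and H3K36me3 was low in the promoter (2 to 3 in LLC-NR). Of the 5, Dleu2 (promoter chr14:62300662-62302162), which hosts a pair of microRNAs deleted in leukemia, Snhg4 and Snhg5 (chr9:88417221-88418721) were active in both lines. Snhg7 went from bivalent to active and Snhg12 from active to none.

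The 3 developmental regulators held more H3K27me3 than these hosts, with medians of 7 and 7 against 3 and 4 (LLC-NR and LLC-R). The medians of all lincRNA promoters were 5 and 6. A number of 7 was not rare, with 66 lincRNA promoters (14.1%) at it in LLC-NR and 123 (26.3%) in LLC-R. Dlx1as, transcribed opposite the homeobox gene Dlx1, Sox2ot, whose transcript spans the stem-cell factor Sox2, and Rmst, a regulator of neurogenesis, held 6, 7 and 7 H3K27me3 peaks (LLC-NR) and 8, 7 and 7 (LLC-R). H3K4me3 was present at 8, 6 and 4 peaks, and at 6, 4 and 5 in LLC-R. All 3 were bivalent in both lines, although Rmst in LLC-NR and Sox2ot in LLC-R, at 4 H3K4me3 peaks, counted as such by their 7 H3K9ac peaks. Their H3K27me3 exceeded the highest value of the 5 small RNA hosts in LLC-R, and in LLC-NR only Snhg7, with 6, equalled Dlx1as. Rmst and Sox2ot reached these numbers with 12 and 13 CpG in 1.5 kb.

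Among imprinted lincRNAs, which are expressed from the allele of a single parent, Meg3 (promoter chr12:110778211-110779711), the maternally expressed RNA of the Dlk1 cluster, differed most of the 3 between the lines. H3K4me3 went from 2 peaks in the LLC-NR isograft to 5 in the LLC-R isograft. In the same order it had 4 and 6 H3K9ac peaks, 3 and 6 H3K27me3 peaks, and 5 and 8 H3K36me3 peaks. All the marks were thus higher in LLC-R, and the promoter passed from no state to bivalent. Mirg, a microRNA host in the same cluster, had 4 and 5 H3K4me3 peaks and 5 and 8 H3K27me3 peaks. Airn, which starts in an intron of Igf2r on the opposite strand and silences that gene on the paternal allele, had 6 and 5 H3K4me3, 6 and 4 H3K9ac, 5 and 6 H3K27me3 and 6 and 5 H3K36me3 peaks.

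Of the lincRNAs tied to growth or survival, Pvt1 (promoter chr15:61868542-61870042), the neighbor of Myc, was at or above the lincRNA medians for all 4 modifications. It was furthest above for H3K36me3 in LLC-NR (median 4), while its H3K27me3 in LLC-R equalled the median of 6. It held 7 H3K4me3 peaks in both lines, 7 and 6 of H3K9ac, 6 and 6 of H3K27me3 and 8 and 8 of H3K36me3, and its body carried 4.4 and 4.8 H3K36me3 peaks per kb. The promoter of 1700020I14Rik (Oip5os1 in RefSeq, the conserved RNA Cyrano) held 7 and 6 H3K4me3 peaks and 5 and 7 H3K9ac peaks, with H3K27me3 going from 3 to 6. Gm14005 (Morrbid in RefSeq, a survival regulator of short-lived myeloid cells) dropped from 6 to 2 H3K4me3 peaks, with 5 H3K9ac and 4 H3K27me3 peaks in both lines, and lost the active state. Miat, a nuclear RNA of neurons, had 4 and 6 H3K4me3 peaks and 6 and 7 H3K27me3 peaks.

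**Figure D4:**
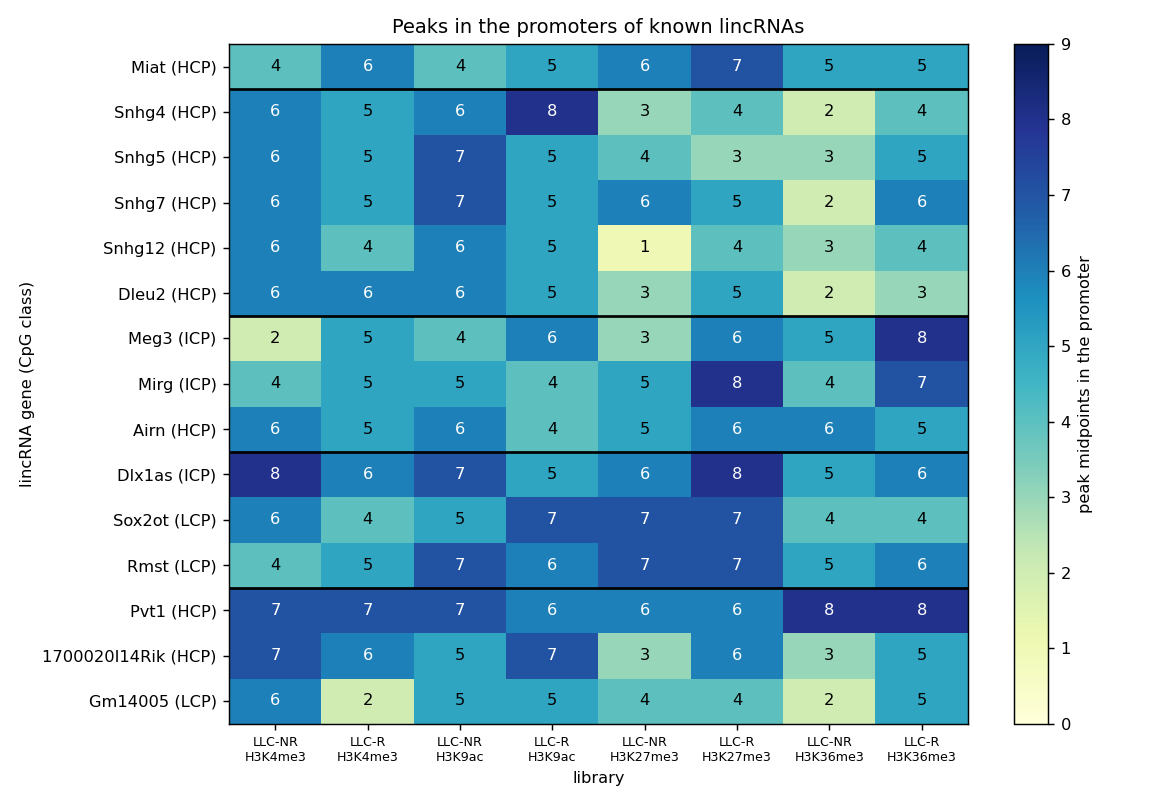
Number of peak midpoints (printed and shaded, 0 to 9) in the promoters of 15 known lincRNAs (rows, with CpG class) in the 8 libraries (columns). Black lines part the lists, from top: nuclear RNAs, hosts of small RNAs, imprinted, development, growth and p53. The small RNA hosts are pale for H3K27me3 in LLC-NR (1 to 6), the developmental ones dark (6 to 7), and Pvt1 holds 6 to 8 throughout.

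The lincRNA promoters with the most H3K4me3 in both lines together, a choice made on these values, were Gm10492 (9 peaks for LLC-NR and 8 for LLC-R), Ttc28 (8 and 9), A430072P03Rik (7 and 8), Gm16956 (7 and 8) and 1300002E11Rik (8 and 6). The last of these, with 14 peaks in all, tied with other promoters, Pvt1, Gm15283 and the ICP Dlx1as among them, and was placed by its H3K9ac and then its H3K27me3. Gm10492 is an ICP with 31 CpG and the others named are HCPs, and Ttc28 is typed protein-coding in RefSeq. Gm10492 also had the highest H3K9ac among them, 9 and 8, and in LLC-NR its peaks of both marks fell at nearly the same bases. In LLC-NR the H3K4me3 midpoints upstream were at -979, -830, -582, -394, -237 and -85 bp and those of H3K9ac at -975, -828, -587, -390, -241 and -92 bp. The H3K36me3 midpoints upstream in LLC-NR, at -968, -584, -400 and -84 bp, lay near some of these, so the match was not particular to the active marks. In LLC-R the H3K4me3 midpoints lay at -983, -820, -581, -395, -242 and -85 bp, within 10 bp of those in LLC-NR, while those of H3K9ac lay at -980, -764, -613, -441, -236 and -84 bp. The sequence printed above for Gm10492 covers the midpoints at -237 and -85 bp.

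The excess of H3K27me3 over H3K4me3, also a choice made on these values, was ranked among promoters with a peak in every library. It was largest in Gm17668, Mir155, Gm17708, Gm8378 and Gm17456. Of these, Gm17456 tied with A230087F16Rik and others at an excess of 8 and was placed by its lower H3K9ac. Gm17668, with 38 CpG, held 2 H3K4me3 peaks in each line and 6 and 7 H3K27me3 peaks. Mir155, typed lincRNA here for the host transcript of the immune microRNA miR-155, is an LCP with 8 CpG and had the same numbers of both marks, with 6 and 5 H3K9ac peaks. The lincRNA genes with the densest H3K36me3 in the body among those with H3K4me3 at or above the protein-coding mean in both lines were 9430091E24Rik (4.4 and 5.2 peaks per kb), Gm15283 (4.8 and 4.8) and Gm17557 (4.8 and 4.8), of which Gm17557 starts opposite an exon of Kdm3b.

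Between the lines, peak numbers moved with the whole library and little beyond it. The lincRNA means, scaled by the peaks of each library on chromosomes 1 to 19, differed between LLC-R and LLC-NR by -0.030 on the log2 scale for H3K4me3, -0.016 for H3K9ac, -0.021 for H3K27me3 and 0.054 for H3K36me3. Protein-coding promoters of like CpG content differed by -0.073, -0.018, -0.076 and 0.14. Without scaling, the lincRNA means differed by -0.036, -0.14, 0.30 and 0.49, since the LLC-R libraries held more H3K27me3 and H3K36me3 peaks and fewer H3K9ac peaks. The scaled H3K36me3 difference was 0.24 in lincRNA HCPs and -0.06 in LCPs, against 0.28 and 0.09 in the protein-coding classes. Scaled by uniquely mapped reads per library, the lincRNA differences were 0.24, 0.67, -0.80 and -0.72, so the direction of 3 of the 4 marks depends on whether peaks or reads set the scale.

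A promoter was counted as different when the lines were at least 3 peaks apart, with no test. H3K4me3 was higher in LLC-R at 19 lincRNA promoters (4.06%, 2.46% to 6.27%) against 2.5% of all 21886 promoters, and lower at 27 (5.77%, 3.84% to 8.28%) against 5.35%. H3K9ac was higher at 5 (1.07%) against 1.06% and lower at 25 (5.34%) against 6.39%. Against the LLC-NR number scaled by library peaks, these H3K9ac counts were 6 and 11. The lincRNA shares were near the background for both marks, and of the 19 with more H3K4me3 only 1 was an HCP, whereas 11 of the 27 with fewer were. In LLC-NR the 19 averaged 2.32 H3K4me3 peaks and the 27 averaged 6.44, and lincRNA HCPs averaged 5.54 against 3.69 in LCPs. Peak numbers never exceeded 9, so the starting level limits how far a promoter can rise or fall. Its part in the HCP counts was not tested. At like CpG content 3.44% of protein-coding promoters had at least 3 more H3K4me3 peaks.

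H3K27me3 was at least 3 peaks higher in LLC-R at 86 lincRNA promoters (18.4%, 14.97% to 22.2%), above the 13% of all promoters and the 12.5% of protein-coding promoters of like CpG content. Of the 86, 40 were ICPs and 35 began within a protein-coding gene, against 162 and 136 of all 468. The 86 were chosen on this difference, so the rise of their mean, from 2.87 to 6.34 peaks, follows from the choice. It was at least 3 peaks lower at 1 promoter (0.214%), Gm17272, against 0.507%. For H3K36me3 the share was below the background, with 120 lincRNA promoters at least 3 peaks higher (25.6%, 21.7% to 29.9%) against 31.6% of all promoters and 30.4% at like CpG content, and 1 lower (0.214%), BB218582, against 0.128%. Just outside these thresholds, 77 lincRNA promoters had 2 more H3K27me3 peaks and 110 had 2 more H3K36me3 peaks. When each LLC-R number was instead set against the LLC-NR number scaled by library peaks, 29 lincRNA promoters were at least 3 H3K27me3 peaks higher and 45 lower, which turned the order of these counts. For H3K36me3 the same scaling left 53 higher and 29 lower.

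**Figure D5:**
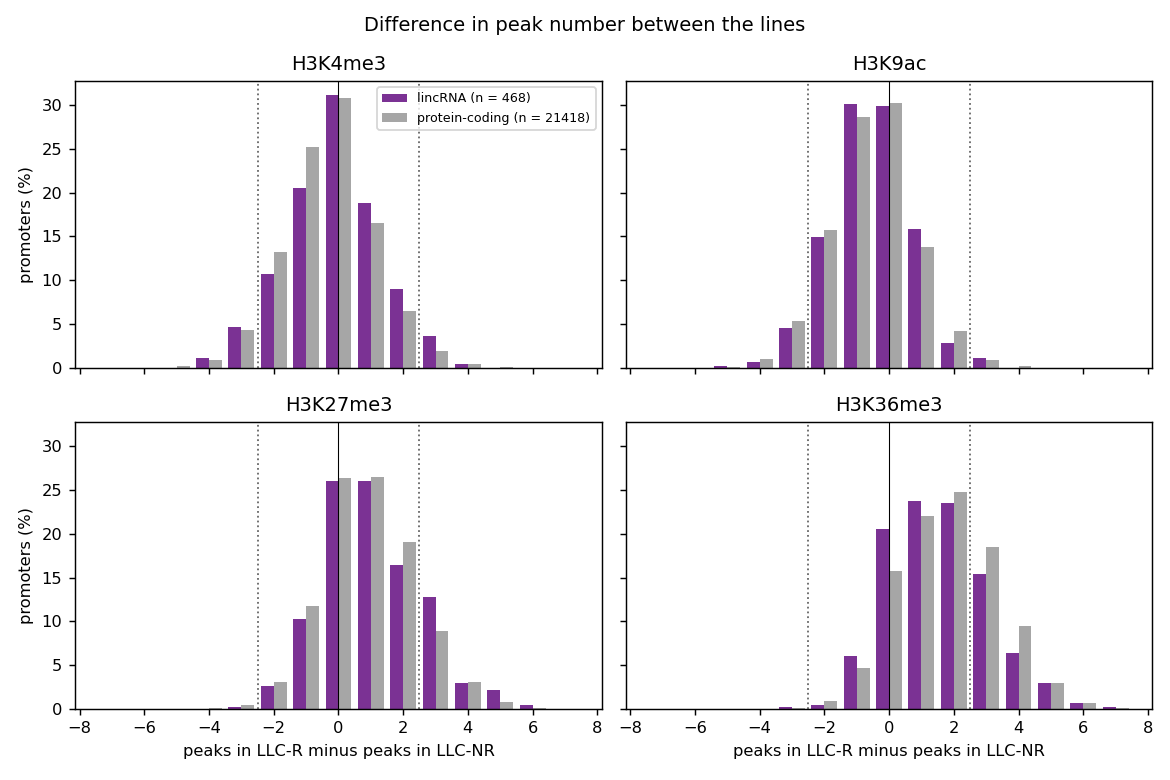
Share of promoters (vertical axes, %) at each difference in peak number between LLC-R and LLC-NR (horizontal axes) for 468 lincRNA (purple) and 21418 protein-coding promoters (gray), with dotted lines at the threshold of 3 peaks. H3K4me3 and H3K9ac have lincRNA medians of 0 and -1, and H3K27me3 and H3K36me3 lie to the right, with 18.4% and 25.6% of lincRNA promoters past the right-hand line.

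The largest rises in H3K4me3, chosen on this difference, were A230087F16Rik, from 1 to 5 peaks, and Gm17458, from 3 to 7, and Meg3 was among the 17 promoters with a rise of 3. H3K9ac did not move with it, at 6 and 6 peaks in A230087F16Rik and 7 and 6 in Gm17458. The largest fall was 4 peaks, in 5 promoters: 4931431C16Rik (7 to 3), Gm17531 (5 to 1), Gm13003 (6 to 2), Gm14005 (6 to 2) and Gm13421 (7 to 3), the last named after its values were seen. H3K9ac went from 6 to 5 in the first pair and was the same in both lines in the other three. Gm17531 also went from 0 to 5 H3K27me3 peaks and from 1 to 6 H3K36me3 peaks. Taking any difference, 54 lincRNA promoters (11.5%, 8.79% to 14.8%) had fewer H3K4me3, fewer H3K9ac and more H3K27me3 peaks in LLC-R, against 13.97% of protein-coding promoters, and 2 (4833422M21Rik and Gm6999, 0.427%) had the opposite combination, against 0.859%.

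The positions of H3K4me3 peaks were kept between the lines more often than in background windows. Without matching for CpG content they were kept less often than in protein-coding promoters, but the CpG classes differed in this. Of 2086 H3K4me3 midpoints in lincRNA promoters of LLC-NR, 749 lay within 30 bp of one in LLC-R (35.9%, 33.8% to 38.0%), against 25.02% in background windows and 44.1% in protein-coding promoters. Peaks were also denser in lincRNA promoters than in background windows (4.35 against 3.28 H3K4me3 peaks per 1.5 kb in LLC-R), and the part of density in these shares was not tested. The share was 43.7% (40.0% to 47.5%) in lincRNA HCPs, below the 51.1% of protein-coding HCPs. In ICPs it was 32.9% (29.5% to 36.5%), near the 33.6% of protein-coding ICPs. In LCPs it was 31.03% (27.5% to 34.7%), above the 26.8% of protein-coding LCPs. For H3K9ac the lincRNA share was 45.0% (43.2% to 46.9%) against 38.5% in background windows. For H3K27me3 (42.1%) and H3K36me3 (43.2%) it was near the background shares of 44% and 41.6%.

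Short sequence motifs of core promoters were searched on both strands from 250 bases upstream to 49 bases downstream of the 5′ end. The TATA-box letters TATAAA were found in 61 lincRNA promoters (13.0%, 10.1% to 16.4%) against 15.9% of protein-coding promoters of like CpG content, the CCAAT box (CCAAT) in 36.3% against 37.5%, the GC box (GGGCGG) in 26.3% against 28.3%, the ETS-type letters CCGGAA in 13.7% against 12.7%, and the E-box CACGTG in 43 (9.19%, 6.73% to 12.2%) against 6.42%. Of these only the E-box share had an interval that left out the protein-coding value. Over all protein-coding promoters the GC box was found in 43.7%. In LLC-NR, lincRNA promoters with a GC box held 5.36 H3K4me3 peaks and those without held 4.14. The Dleu2 window holds TATA-box, GC-box and E-box letters, and that of Snhg5 holds all but the E-box.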

How the data were processed

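Chromatin of LLC-NR and LLC-R isografts was digested with micrococcal nuclease and immunoprecipitated with antibodies against H3K4me3, H3K9ac, H3K27me3 and H3K36me3. Alignment to mm9 was done by the authors with Bowtie 0.12.7, with up to 2 mismatches and uniquely mapped reads kept, and called peaks with GeneTrack, whose settings are not given in the sources used here. The deposited files hold peak positions (chromosome, start and end) with no height, score or strand, so numbers of peaks stand for levels in place of summed peak occupancy. A number of peaks saturates, because peaks of 147 bp do not overlap.

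Midpoints were counted over the 1.5 kb that reach 1 kb upstream and 0.5 kb past the 5′ end (GENCODE vM1, protein_coding and lincRNA types). Protein-coding means were standardised in 10 bins of CpG number. Uniqueness was the share of 32-base words present once in mm9. Sequences were read from mm9, and gene types and current symbols were taken from RefSeq. The lincRNAs named were every member of the 5 lists, the 5 with the most H3K4me3, the 5 with the largest excess of H3K27me3, the 3 largest rises and 3 largest falls of H3K4me3 with the change in H3K9ac as tie-break, and the 3 with the densest H3K36me3 in the body, plus single members of a count. The excess of H3K27me3 over H3K4me3 was ranked only among promoters with a peak in every library. The promoters and the lists were chosen with earlier results of these data known. With 1 library per line and mark no test was made. The alternative scaling by reads used the uniquely mapped read totals given by the study. Counting was tested on simulated data. Python 3.11.15, NumPy 2.4.6, SciPy 1.17.1 and pandas 2.3.3 were used.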

Additional observations from a re-analysis of the deposited data

Results flagged for a closer look

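H3K27me3 in lincRNA promoters relative to protein-coding promoters of like CpG content had opposite signs in the 2 lines, -0.152 (LLC-NR) and 0.0294 (LLC-R) peaks per promoter. The difference between the lines was not tested, since each has 1 library, and both intervals include 0.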

How the results depend on the processing

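Each difference from protein-coding promoters, each line difference, each count and each share was recomputed under the alternatives, and 124 of these values stayed within the spread between promoters, within their interval or within 1.5 times the count, 55 moved, and 3 changed sign from an interval that left 0 out. Some values in the first groups, whose own interval held 0, changed sign too, as listed here where they moved. The repeat and RefSeq-type alternatives were chosen after seeing the data. Without standardisation for CpG, the H3K4me3 difference was -0.519 (LLC-NR) and -0.315 (LLC-R), that of H3K36me3 in promoters 0.615 and 0.392, and that of H3K36me3 in gene bodies -0.0901 and -0.0946. Standardised by CpG class, the H3K9ac difference was 0.354 and 0.341 and that of H3K36me3 in LLC-R 0.344. Without the promoters that overlap a protein-coding gene, the H3K9ac difference in LLC-NR was 0.0150, that of H3K36me3 in promoters changed sign to -0.0231 and -0.0214, and that in bodies to -0.221 and -0.196. Without scaling, the log2 difference between lines was -0.138 for H3K9ac, 0.304 for H3K27me3 and 0.491 for H3K36me3, and by uniquely mapped reads it was 0.237 for H3K4me3, 0.666 for H3K9ac, -0.796 for H3K27me3 and -0.723 for H3K36me3. At a threshold of 2 peaks, more and fewer were counted at 61 and 77 promoters for H3K4me3, 18 and 95 for H3K9ac, 163 and 13 for H3K27me3, and 230 and 3 for H3K36me3. At 4 peaks these were 2 and 5, 0 and 4, 26 and 0, and 48 and 0. Against library-scaled expectation, H3K9ac was lower at 11, H3K27me3 higher at 29 and lower at 45, and H3K36me3 higher at 53 and lower at 29. With 2 times the mean asked of the active marks, which a promoter can hardly hold, 0 were active and 0 bivalent in either line, 256 repressive and 212 none (LLC-NR), and 310 and 158 (LLC-R). Within 10 bp, the shared positions were 20.8%, 29.1%, 24.4% and 24.99% for H3K4me3, H3K9ac, H3K27me3 and H3K36me3, and within 73 bp 58.0%, 66.8%, 68.5% and 70.1%. The cause of these moves was not tested beyond what each alternative changes by construction. Soft-masked repeats were not run, as the genome used has 0 lower-case bases. No paired analysis was possible because each line has 1 library per mark and no test was made.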

Other observations

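The number of annotated transcripts divided the lincRNA promoters in H3K27me3. In LLC-NR the 109 genes with more than 1 transcript had 5.04 ± 1.75 peaks (SD), which was 0.309 above protein-coding promoters of like CpG content, and the 359 genes with 1 transcript had 4.41 ± 1.92, which was 0.291 below. In LLC-R the means were 5.86 ± 1.26 and 5.55 ± 1.80, with differences of 0.237 and -0.0336. The 134 manually annotated genes stood at 4.89 ± 1.62 in LLC-NR and the 334 automatic ones at 4.42 ± 1.99. These groups were looked at after their values were known, they also differ in CpG content (a median of 38 CpG with more than 1 transcript and 23 with 1), and its part in the result was not tested beyond the matching.

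Within lincRNA promoters, numbers of H3K27me3 and H3K4me3 peaks were positively related. Spearman's rho across the 468 promoters of H3K27me3 with H3K4me3 came to 0.25 for LLC-NR and 0.26 for LLC-R, above the 0.11 and 0.15 of protein-coding promoters, as descriptions over promoters that share a library and differ in how uniquely reads map to them.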
